A study of Homo sapiens with 5 samples.

Results

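Probes for 8 genes of tumour necrosis factor (TNF) signalling were followed on 5 arrays of the melanoma line SK-MEL28. The genes were the ligands TNFSF4 and LTA, the receptors TNFRSF14, TNFRSF9, TNFRSF10B, TNFRSF10C and TNFRSF25, and TNFAIP3, which encodes the intracellular inhibitor A20. They were found by the gene symbol given for each probe, which named 10 of the 3048 probes of the array and 8 of its 2078 named genes. TNFRSF25 had 3 probes and each other gene had 1. The genes were chosen with their log2 ratios on these arrays known, so those ratios are given here as a description with no test.

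SK-MEL28 is an established human cell line from a malignant melanoma, grown as a monolayer. On 3 arrays the treatment was cisplatin, which binds DNA and links its bases. On 2 arrays the cells had been treated with cisplatin and electroporation, called the combination below, in which electric pulses make the cell membrane permeable to the drug. Per the labels, cells were pulsed in suspension, in a cold sucrose and phosphate buffer, at a field of 1300 V/cm, in a train of 8 pulses that each lasted 100 µs, given at 1 Hz. Every array carried Cy5-labelled RNA of treated cells beside Cy3-labelled RNA of untreated cells, and no array held cells given pulses without drug. All values come from 1 cell line, and nothing in the labels says whether the arrays of a treatment come from separate cultures, so the spread between arrays may be technical. Neither the drug dose nor the time of harvest behind these RNA samples is stated in the labels. Fewer cells carrying a transcript and less of it per cell cannot be told apart in such bulk RNA.

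TNF superfamily ligands are trimeric proteins of the cell surface, some of them shed, that cluster their receptors on neighbouring cells. Receptors with a death domain, among them TNFRSF10B and TNFRSF25, can recruit adaptors and caspases and start apoptosis, whereas TNFRSF14 and TNFRSF9 bind TRAF adaptors and lead to the transcription factor NF-kB. TNFRSF10C binds the death ligand TRAIL but lacks a death domain and is known as a decoy receptor. A20 edits ubiquitin chains on proteins of the receptor complex and ends NF-kB signalling, and its gene is itself an NF-kB target.

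The sequences upstream of 4 of the genes are shown because TNFAIP3 and TNFRSF9 are known NF-kB targets, and because TNFSF4, TNFAIP3 and TNFRSF14 had a ratio of the same sign on all 5 arrays. Each is the 250 bases before the gene start in RefSeq's table of build GRCh38.p14, written 5′ to 3′ on the strand of the gene. Capitals mark a match to the NF-kB consensus of 10 bases on either strand. It was searched as GGGRNNYYCC, where R is A or G, Y is C or T and N is any base. The windows are chr6:137867009-137867258 on the plus strand for TNFAIP3, chr1:7940840-7941089 on the minus strand for TNFRSF9, chr1:173205533-173205782 on the minus strand for TNFSF4 and chr1:2556121-2556370 on the plus strand for TNFRSF14.
TNFAIP3: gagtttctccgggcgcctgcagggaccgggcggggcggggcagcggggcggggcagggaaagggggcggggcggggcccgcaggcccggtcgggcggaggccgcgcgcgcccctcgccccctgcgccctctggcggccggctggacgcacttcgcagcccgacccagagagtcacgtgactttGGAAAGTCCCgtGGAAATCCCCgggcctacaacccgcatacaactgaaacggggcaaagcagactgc
TNFRSF9: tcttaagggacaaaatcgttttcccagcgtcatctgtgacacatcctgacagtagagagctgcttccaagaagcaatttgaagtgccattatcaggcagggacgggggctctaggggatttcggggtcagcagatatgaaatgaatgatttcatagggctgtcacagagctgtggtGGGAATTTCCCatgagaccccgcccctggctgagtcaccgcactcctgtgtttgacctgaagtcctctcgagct
TNFSF4: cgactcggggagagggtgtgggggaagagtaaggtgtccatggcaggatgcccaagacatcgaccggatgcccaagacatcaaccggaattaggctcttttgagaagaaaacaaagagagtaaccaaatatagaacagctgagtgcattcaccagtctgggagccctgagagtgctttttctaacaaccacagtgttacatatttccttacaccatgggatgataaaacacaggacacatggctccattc
TNFRSF14: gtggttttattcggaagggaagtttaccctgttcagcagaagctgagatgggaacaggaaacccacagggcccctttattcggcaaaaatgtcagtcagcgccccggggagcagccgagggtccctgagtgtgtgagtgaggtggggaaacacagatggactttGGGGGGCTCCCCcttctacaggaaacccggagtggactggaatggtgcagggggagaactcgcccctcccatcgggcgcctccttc

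The TNFAIP3 window held a pair of separate matches, GGAAAGTCCC at bases -67 to -58 and GGAAATCCCC at bases -55 to -46 from the gene start, both on the opposite strand. In TNFRSF9 overlapping matches lay in 1 run, with GGGAATTTCC at bases -74 to -65 on the strand of the gene. The TNFRSF14 matches also overlapped in 1 run, which is made almost wholly of G and C, and the TNFSF4 window held no match. LTA and TNFRSF25 were searched as well. The LTA window chr6:31572039-31572288 held overlapping matches, whereas its window chr6:31571849-31572098 and the TNFRSF25 window held none. Of 35116 upstream windows of this length in the table, 3498 (9.96%) held at least 1 match. The genes shown were picked partly as known NF-kB targets, so nothing is read from their matches beside this share. A match is a run of letters and does not show binding.

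The probes differed widely in how far they stood above the local background, which sets how much each ratio can show. Counted as above background was a probe whose median foreground exceeded the local background by 2 standard deviations in at least 0.5 of its spots. By this rule 6 of the 10 probes stood above background in at least 1 channel on every array: those of TNFSF4, TNFRSF14, TNFRSF9, TNFRSF10B and TNFAIP3 and the brightest of the 3 for TNFRSF25. In the untreated channel LTA, TNFRSF10C and the dimmest TNFRSF25 probe were above background on 0 of 5 arrays. For those 3 probes a ratio near 0 does not show an unchanged transcript.

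**Figure D1:**
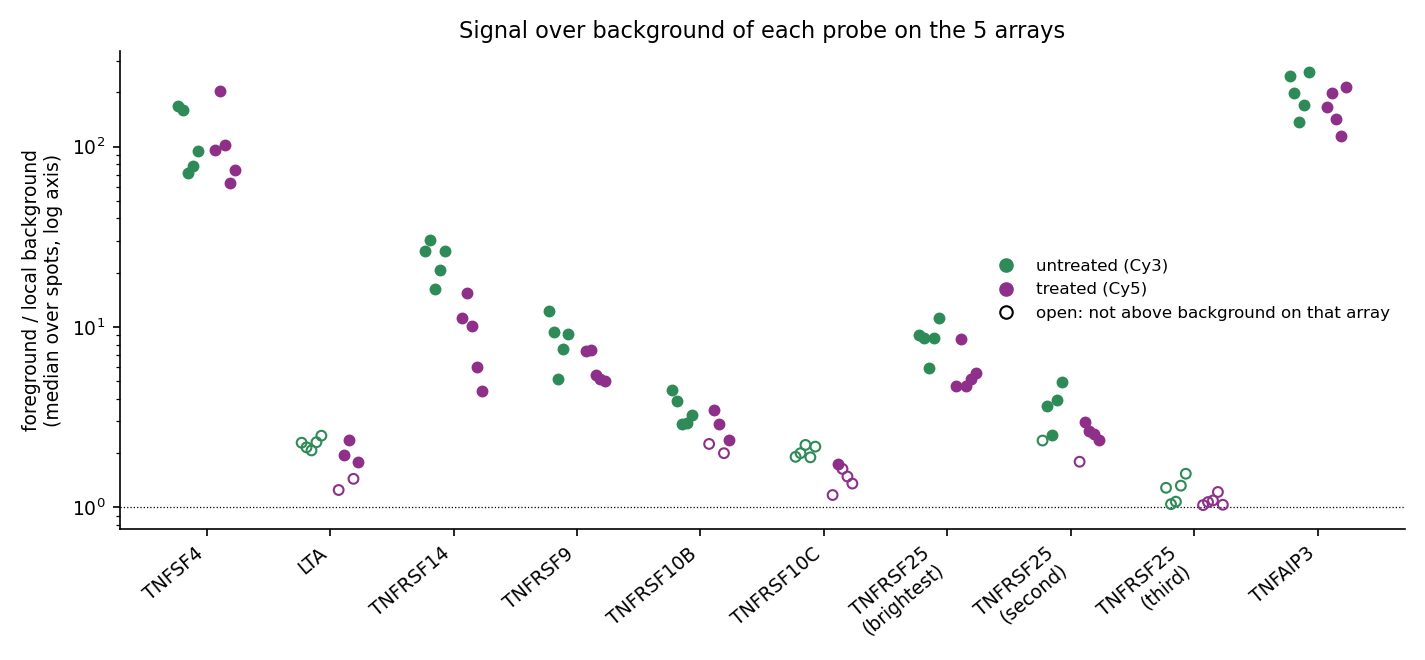
Foreground over local background (median over the spots of a probe, log axis) for each of the 10 probes, with 1 point per array in the untreated and the treated channel. Open points were not above background on that array; LTA, TNFRSF10C and the dimmest TNFRSF25 probe have only open points in the untreated channel.

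In the series as a whole, each array held 12788 spots for 3048 probes, and 7 of the 10 probes described here were spotted 8 times and 3 were spotted 4 times. Between 1216 and 1843 probes per array and channel were above background. The second combination array stood apart: 766 of its spots (5.99%) lay more than 4-fold from the median of their own probe in the untreated channel, against 19 to 113 on the other arrays, and 719 of the 766 were the last listed spot of their probe. The last listed spot thus departed for 23.6% of the 3048 probes, and whether these spots carry the probe they are listed for is in doubt. Such departing spots are counted in the values below, the ranks and shares over all probes included, unless a value is said to be without them. Of the spots of the 10 probes, 6 departed on that array and 0 on the others. Melanocyte markers stood above background for 6 of 6 measured genes, among them MLANA, TYR and MITF, where 1461 of all 3048 probes did. So did 3 of 5 measured endothelium markers, 2 of 3 epithelium markers and 2 of 2 fibroblast markers, so this rule alone does not tell cell types apart. Of 11 leukocyte markers, 5 were measured and 3 (CD8A, CD14 and ITGAM) stood above background; the group is named here because several TNF family genes are best known from lymphocytes. Over the 5 leukocyte genes the summed signal of treated cells was 888 to 1343 on the cisplatin arrays and 870 to 1050 on the combination arrays, against 1048 to 1728 and 1653 to 1844 in untreated cells. CD3E and CD4 were measured and were not above background. Over the 6 melanocyte genes the summed signal of treated cells was 2406 to 3879 and 1904 to 1916, against 2031 to 4564 and 2754 to 3306 in untreated cells. These sums are per channel. On the combination arrays the median foreground over all spots was 32 and 28 in the treated channel, against 41 and 43 in the untreated one. As normalized log2 ratios for cisplatin and the combination, the medians were 0.050 and -0.065 over the melanocyte genes. Over the leukocyte genes they were -0.012 and -0.25. None of these markers passed limma's test over all probes, and their part in the results was not tested.

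TNFSF4, the OX40 ligand, a costimulator of T cells, had positive ratios on all 5 arrays. Its log2 ratio of treated over untreated cells was 0.12, 0.63 and 0.68 on the cisplatin arrays and 0.39 and 0.29 on the combination arrays. The first cisplatin array was low and the other 2 high, and the combination arrays lay between them, so the treatments overlapped. The mean was 0.47 ± 0.31 (SD, n = 3) for cisplatin and 0.34 ± 0.071 (SD, n = 2) for the combination, or 139% and 126% of the untreated level. Among the 1461 probes above background, it was the fifth highest mean in both treatments, or the fourth highest after the combination without departing spots.

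The sign for TNFSF4 rested in part on the correction for dye and brightness. Before normalization, its median foreground over 8 spots was 1852 in untreated and 1491.5 in treated cells on the first cisplatin array. It was 1906 and 2863.5 on the second, and 931 and 1624 on the third. The treated channel was thus brighter on 2 of the 3 cisplatin arrays. It was dimmer on both combination arrays, with 1136 untreated and 1064 treated on the first and 1230 and 1043.5 on the second. With each array centred on its median and no loess curve, TNFSF4 read -0.32, 0.57 and 0.72 after cisplatin and -0.0035 and 0.063 after the combination. The combination mean was then 0.030 and the cisplatin mean 0.32. Across the spots of an array, 8 of 8 ratios were positive on the second and on the last of the cisplatin arrays and 5 of 8 on the first. On the second combination array 1 spot departed, and without it the ratio was 0.34.

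LTA encodes lymphotoxin alpha, a secreted ligand of activated lymphocytes. Its 8 spots had untreated medians of 24 to 34.5 per array over a background of 10.5 to 15. The ratios were -0.13, 0.0088 and 0.13 on the cisplatin arrays and -0.082 and 0.079 on the combination arrays. They scattered around 0 in both treatments, with means of 0.0024 ± 0.13 (SD, n = 3) and -0.0014 ± 0.11 (SD, n = 2). On the second combination array the last listed LTA spot read 4479 in the untreated and 3730 in the treated channel, whereas the other 7 read 16 to 48 and 15 to 30. Without it that array read 0.070.

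TNFRSF14, the herpesvirus entry mediator, is a receptor for the ligands LIGHT and lymphotoxin alpha and also binds the inhibitory receptor BTLA. It had the lowest mean ratio of the 8 genes in both treatments and was below 0 on all 5 arrays. The log2 ratio was -0.12, -0.60 and -0.36 on the cisplatin arrays and -0.77 and -0.98 on the combination arrays. Both combination arrays lay below every cisplatin array. The means were -0.36 ± 0.24 (SD, n = 3) and -0.88 ± 0.15 (SD, n = 2), which correspond to 78.1% and 54.5% of the untreated level. Among the 1461 probes above background, TNFRSF14 had the 18th lowest mean after cisplatin and the fifth lowest after the combination, or the fourth lowest without departing spots.

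The lower signal of TNFRSF14 was visible in the foreground before any normalization. Untreated cells gave medians of 291, 378 and 229 on the cisplatin arrays, and treated cells 163.5, 217.5 and 172. On the combination arrays untreated cells gave 301.5 and 343.5 and treated cells 102.5 and 62. The untreated signal of the combination arrays lay within the range of the cisplatin arrays, and the treated signal lay below it. The treated foreground was below the untreated one in 8 of 8 spots on both combination arrays and on the second cisplatin array, in 7 of 8 on the first and in 6 of 8 on the third. On the second combination array 1 of the 8 spots departed, at 25 untreated and 14 treated, and without it the ratio was -1.10 in place of -0.98. Of the other 7, 5 read 341 to 383 untreated and the remaining 2 read 189 and 101. The spot at 101 was the last listed one and did not meet the rule for departing. Its ratio was 0.089, and it is still counted in the -1.10. With that last listed spot left out and the departing one kept, the array read -1.13. Over all spots of an array, the treated median was 32 against 41 untreated on the first combination array and 28 against 43 on the second. On the cisplatin arrays it was 30, 31 and 36 against 33, 33 and 34. For TNFRSF9, too, the treated foreground was lower in 8 of 8 spots on both combination arrays, at normalized ratios of 0.17 and -0.0063. The raw direction alone thus does not set TNFRSF14 apart there.

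The size of the TNFRSF14 ratio after the combination depended on the background correction. The correction used here adds an offset of 50 to both channels and draws dim ratios toward 0. With no background correction, and so no offset, the combination mean was -1.13, or 45.6% of the untreated level. With plain subtraction of the background the ratios of the combination arrays were -1.02 and -1.78, with a mean of -1.40 ± 0.53 (SD, n = 2), or 37.9% of the untreated level. The cisplatin mean was -0.42 ± 0.31 (SD, n = 3), or 74.9%. With plain subtraction and without the departing spot, the combination mean was -1.33 (39.8%). With median centring in place of loess the 5 arrays read -0.51, -0.68, -0.36, -1.13 and -1.225. The authors' deposited table gives -0.123, -0.681 and -0.428 for cisplatin and -0.942 and -1.447 for the combination. TNFRSF14 was below 0 on all 5 arrays under every one of the 12 other settings of background, normalization and spots shown in the plot of processing settings. The groups overlapped only with scale normalization between arrays.

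**Figure D2:**
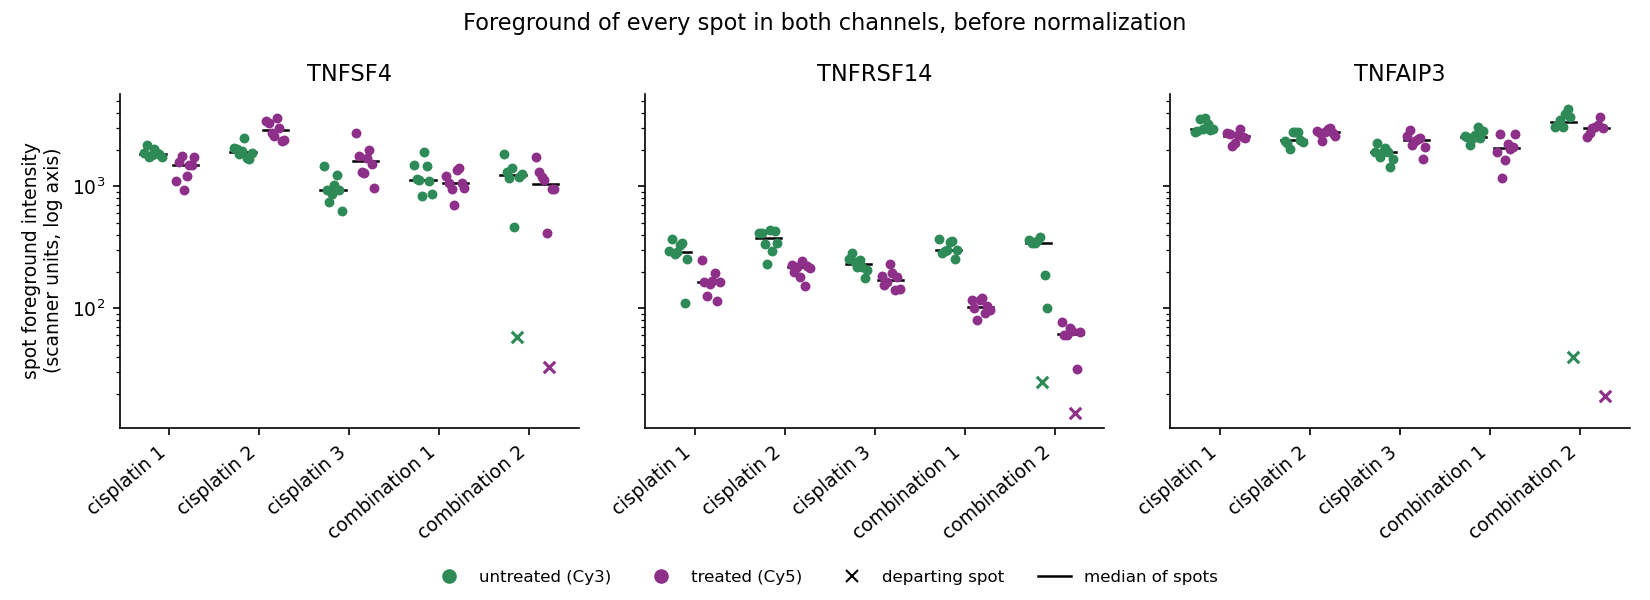
Foreground intensity of each of the 8 spots (log axis) for TNFSF4, TNFRSF14 and TNFAIP3 on the 5 arrays, untreated and treated channel side by side, with bars at the median and crosses for departing spots. The treated median of TNFRSF14 is 102.5 and 62 on the combination arrays and 163.5 to 217.5 on the cisplatin arrays, while its untreated median stays between 229 and 378.

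TNFRSF9, or 4-1BB, is a costimulatory receptor of T and NK cells. Its ratio was 0.32, 0.094 and 0.17 on the cisplatin arrays and 0.17 and -0.0063 on the combination arrays. All cisplatin arrays were above 0, and the combination arrays spread from 0 into the cisplatin range. The means were 0.19 ± 0.11 (SD, n = 3) and 0.083 ± 0.13 (SD, n = 2). Foreground medians ran from 67 to 123 in untreated and from 68 to 110 in treated cells. With median centring the means were 0.068 and -0.18, so the combination lay on the other side of 0. With plain subtraction they were 0.34 and 0.18.

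TNFRSF10B, or DR5, is a death receptor for TRAIL and a known target gene of p53. Its ratio was -0.073, 0.052 and 0.15 on the cisplatin arrays and 0.12 and 0.085 on the combination arrays. The cisplatin arrays lay on both sides of 0, and the combination arrays fell within their range. The means were 0.043 ± 0.11 (SD, n = 3) and 0.10 ± 0.026 (SD, n = 2). The probe was dim, with untreated medians of 37.5 to 47 over a background of 10.5 to 14, and in the treated channel it was above background on 3 of 5 arrays. Its combination mean varied with the processing, from 0.034 with the median of spots to 0.27 with plain subtraction and 0.287 in the authors' deposited table, and the treatments overlapped in each.

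TNFRSF10C, the decoy receptor DcR1, was spotted 4 times, with untreated medians of 21 to 30. It read -0.072, 0.056 and -0.089 after cisplatin and -0.015 and -0.023 after the combination. No array stood apart, and the signal was above background in the treated channel on 1 of 5 arrays. The TRAIL ligand gene TNFSF10 itself, named here as the partner of both receptors, was dim as well and read 0.045 ± 0.048 and -0.025 in the 2 treatments.

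TNFRSF25, or DR3, is a death-domain receptor found mainly on lymphocytes, and all 3 of its probes carry that symbol. The brightest read 0.074, 0.082 and -0.014 on the cisplatin arrays and 0.090 and -0.80 on the combination arrays. The last value came from a single spot. On the second combination array the untreated channel of its 4 spots read 143, 136, 149 and 11775, and the treated channel 61, 73, 83 and 1321. Without the fourth spot the ratio of that array was -0.16, and the combination mean moved from -0.35 to -0.033. The authors' deposited table holds -0.853 for this probe and array. The other TNFRSF25 probes were dimmer, and their means lay between -0.0012 and 0.021 in both treatments, although the dimmest also had a departing last spot on that array, without which it read -0.053 there in place of -0.0070.

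TNFAIP3 had the ratios that varied least between arrays among the 6 probes above background on every array. They were 0.24, 0.21 and 0.27 on the cisplatin arrays and 0.14 and 0.15 on the combination arrays. All 5 were above 0, and both combination arrays lay below the cisplatin arrays by a small margin. The means were 0.24 ± 0.029 (SD, n = 3) and 0.15 ± 0.0070 (SD, n = 2), or 118% and 111% of the untreated level. Spots within an array spread more than the arrays did, with a median SD of 0.18 over 8 spots. The last listed spot of the second combination array read 40 untreated and 19 treated, against 3040 to 4318 and 2555 to 3676 for the other 7. Without it that array read 0.21, which nearly closed the gap to the lowest cisplatin array.

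As for TNFSF4, the positive sign of TNFAIP3 rested on the loess curve on 2 of the 5 arrays. Its untreated and treated foreground medians were 2943 and 2572 on the first cisplatin array, 2375 and 2761.5 on the second and 1915 and 2408.5 on the third. On the combination arrays they were 2549.5 and 2068, and 3350 and 2992.5. The treated channel was thus brighter only on the second and on the last of the cisplatin arrays. With median centring TNFAIP3 read -0.17, 0.15 and 0.32 after cisplatin and -0.21 and 0.025 after the combination, and the combination mean was -0.094. In 11 of the other 12 settings all 5 arrays were above 0. The treatments overlapped with median centring, in the authors' deposited table, and with plain subtraction without departing spots.

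**Figure D3:**
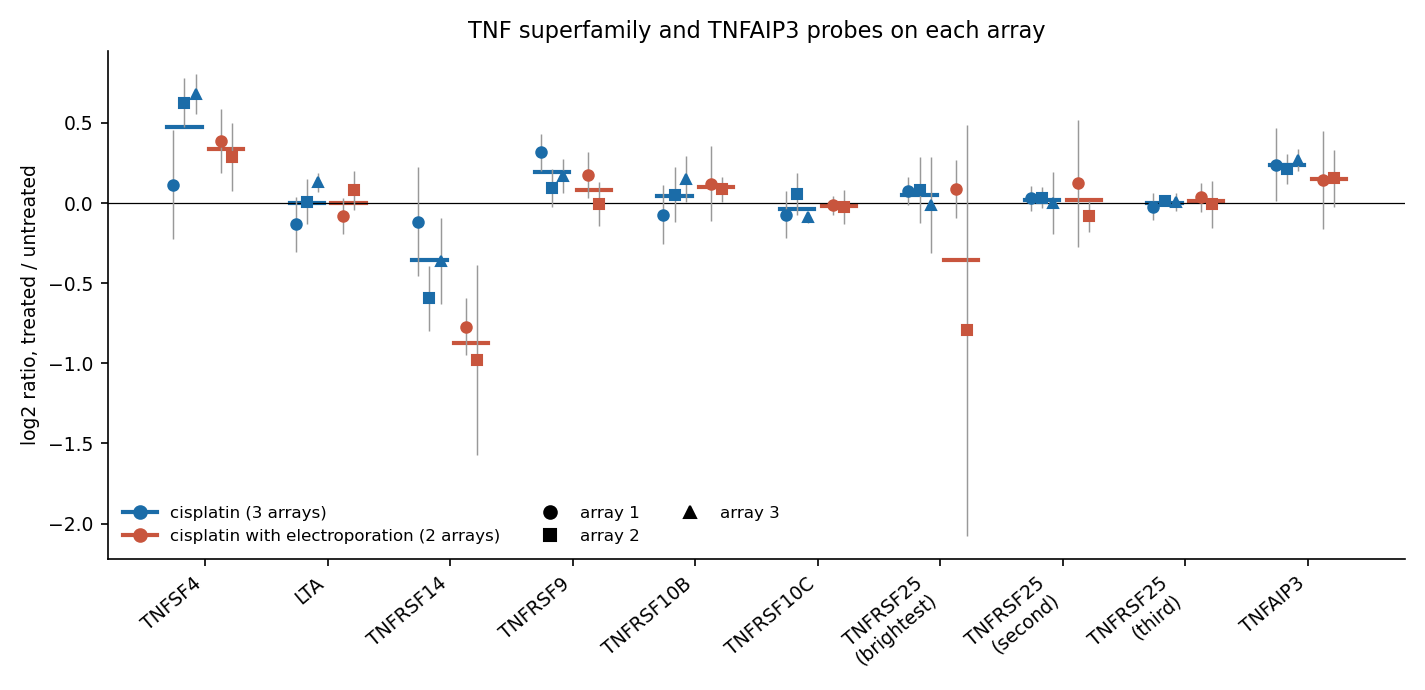
Log2 ratio of treated over untreated cells for each of the 10 probes on each array, with vertical lines for the SD over the spots of that array and bars for the treatment means. TNFRSF14 is below 0 on all 5 arrays, TNFSF4 and TNFAIP3 are above 0 on all 5, and the brightest TNFRSF25 probe has 1 array at -0.80 with a spot SD of 1.28.

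Counted over the 10 probes, 3 were above 0 on all 3 cisplatin arrays, where 16.5% of all 3048 probes were, and 1 was below 0 on all 3, where 18.3% were. Both combination arrays were above 0 for 3 of the 10 (23% of all probes) and below 0 for 2 (30.3%). TNFSF4 and TNFAIP3 were above 0 on all 5 arrays (6.66% of all probes), and TNFRSF14 was below 0 on all 5 (9.42%). For TNFRSF14 and TNFAIP3 the combination arrays lay below all cisplatin arrays, by 0.52 and 0.091 between the means, and 10.7% of all probes did so. The reverse order was seen for 0 of the 10 and for 7.32% of all probes. Without departing spots 3042 of the 3048 probes had a value on all 5 arrays. The shares of probes that involve the combination arrays then moved to 24.1% and 28.9%, 6.64% and 9.07%, and 10% and 7.26%, in the order given. Since the genes were chosen on these ratios, nothing is read from their counts.

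Over all probes, the limma test at an adjusted p under 0.05 called 0 of 3048 (0%) in each of 3 comparisons. The smallest adjusted p was 0.106 for cisplatin, 0.0932 for the combination and 0.994 for the difference between the treatments. An unadjusted p under 0.05 was reached by 337, 304 and 107 probes. With each probe's dyes in the same orientation on every array, a dye preference of a probe stays in its ratio to untreated cells and cancels in the difference between treatments.

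**Figure D4:**
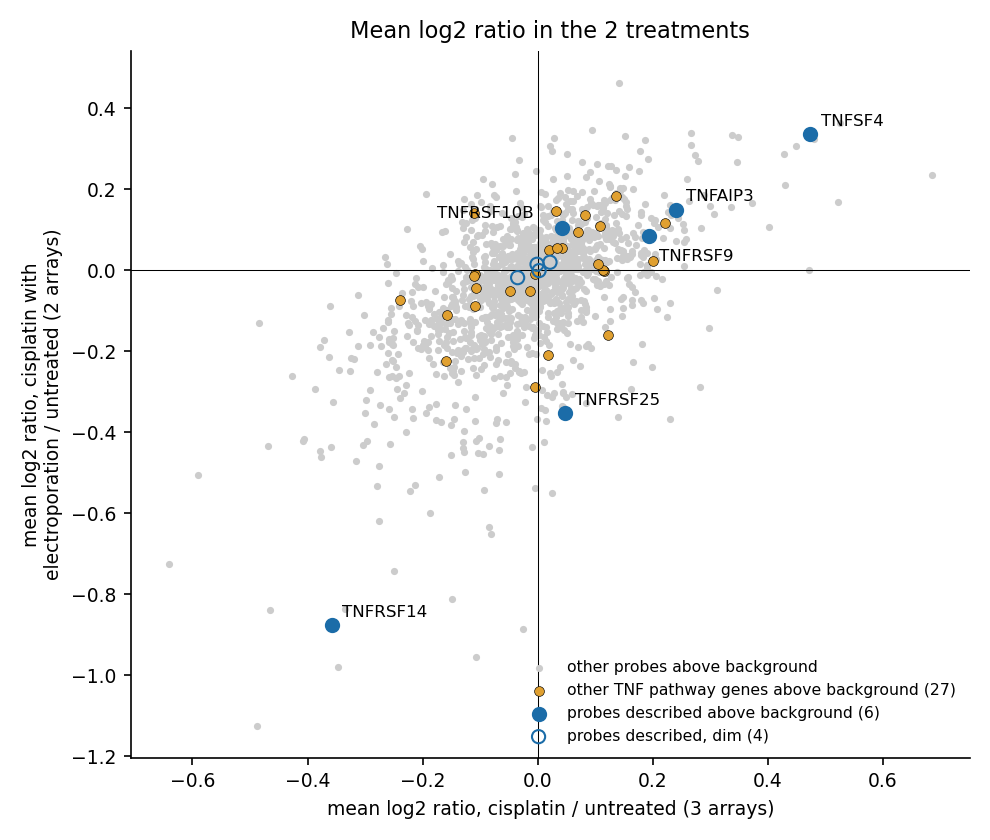
Mean log2 ratio after cisplatin (horizontal, 3 arrays) against that after the combination (vertical, 2 arrays) for the probes above background, with the probes described here in blue, open where dim, and 27 other TNF pathway genes in orange. TNFRSF14 lies at -0.36 and -0.88, and TNFSF4 at 0.47 and 0.34; the TNFRSF25 point at -0.35 rests on 1 departing spot.

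Genes of the same pathway outside the 8 were measured for 63 members of 5 lists, with 27 above background on all 5 arrays. None of the 63 passed limma's test over all probes in any comparison (smallest adjusted p = 0.256). At an unadjusted p under 0.05, 3 were higher and 2 lower after cisplatin, 2 higher and 2 lower after the combination, and 2 differed between treatments. Without departing spots these counts were 3 and 3, 4 and 1, and 1, and 62 of the 63 genes then had a value on all 5 arrays. CD27 was among the lower genes and those that differed only with its departing spots counted. The median log2 ratio of the 63 was 0.019 after cisplatin and 0.0034 after the combination, beside -0.0014 and -0.0066 over all 3048 probes.

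The 9 other ligands had medians of 0.017 and -0.0091, and 4 of them stood above background. TNFSF9, the ligand of TNFRSF9, read -0.016, 0.0022 and -0.0024 on the cisplatin arrays and 0.028 and -0.60 on the combination arrays. Its combination mean of -0.29 thus came from the second array, on which no spot met the rule for departing. TNFSF11, the osteoclast factor RANKL, had means of -0.11 and -0.090, and LTB, the membrane partner of lymphotoxin alpha, -0.11 and -0.0091. The TNFRSF14 ligand gene TNFSF14 and the TNFSF4 receptor gene TNFRSF4, named here as partners, were both dim. Their means were 0.019 and -0.039, and 0.040 and 0.0027.

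Among 14 other receptors (medians 0.016 and 0.00023) 5 stood above background. NGFR, the neurotrophin receptor p75 that marks neural crest-like melanoma cells, read -0.18, -0.25 and -0.28 on the cisplatin arrays and 0.036 and -0.185 on the combination arrays (limma adjusted p = 0.256 for cisplatin). TNFRSF13B, the B-cell receptor TACI, read 0.15, 0.26 and 0.24 and then 0.012 and 0.22 (adjusted p = 0.278 by limma for cisplatin). For both genes the cisplatin arrays lay on 1 side of 0 and the combination arrays spread. Without 1 departing spot of 4 the second combination array read -0.29 for NGFR. CD27, a costimulatory receptor of T cells, read -0.30 on the second combination array and 0.046 there without 2 departing spots.

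The 17 adaptors and proximal signalling genes had medians of 0.032 and -0.0099, with 7 above background. TRAF1, a TRAF adaptor induced by NF-kB, had means of 0.14 and 0.18, the NF-kB-inducing kinase MAP3K14 0.12 and -0.16, and BAG4, a silencer of TNF receptor death domains, -0.16 and -0.11. Without 1 departing spot of 4, BAG4 read -0.36 in place of -0.26 on the second combination array. Of 8 NF-kB subunits and inhibitors other than TNFAIP3 (medians 0.029 and 0.036), 4 stood above background. NFKB2, the p100 subunit, had means of -0.16 and -0.22 (limma adjusted p = 0.483 for the combination), NFKB1, the p105 subunit, 0.032 and 0.15 (0.447), and RELB 0.042 and 0.055. Without 1 departing spot of 4, NFKB2 read -0.18 in place of -0.11 on the second combination array. With median centring the combination means of TRAF1, NFKB1, RELB, TNFRSF13B and LITAF were negative. Of 15 TNF- and NF-kB-induced genes (medians 0.019 and 0.023) 7 stood above background. LITAF had means of 0.20 and 0.023 (limma adjusted p = 0.256 for cisplatin), the chemokine CCL2 0.11 and -0.00084, and TNFAIP2 -0.11 and -0.016. On the second combination array TNFAIP2 read -0.0051, and 0.024 without 1 departing spot of 4.

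The genes whose 5 ratios lay nearest to those of TNFSF4, TNFRSF14 and TNFAIP3 were looked up among 1245 named probes above background, by the root mean square difference of the log2 ratios. For TNFRSF14 these were NQO1, a quinone reductase, LAMB3, a laminin chain, and NT5E, the ectonucleotidase CD73, at differences of 0.30, 0.30 and 0.302. Their first combination array stood at -0.97, -0.38 and -0.26, where TNFRSF14 read -0.77. Their second stood at -0.99, -0.71 and -0.60, where TNFRSF14 read -0.98. On the third cisplatin array NQO1 read 0.048 and TNFRSF14 -0.36. For TNFSF4 they were the chromatin protein gene HMGB2 (0.213), the cyclin F gene CCNF (0.223) and the RNA polymerase subunit gene POLR2L (0.243). The combination arrays of HMGB2 lay on both sides of 0, at 0.056 and -0.056. For TNFAIP3 they were ARHGEF1 (0.0528), CAMK1, a calmodulin-dependent kinase gene (0.0575), and TGM2, a transglutaminase gene (0.0709). All 3 arrays of cisplatin and both of the combination were above 0 for these last genes.

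**Figure D5:**
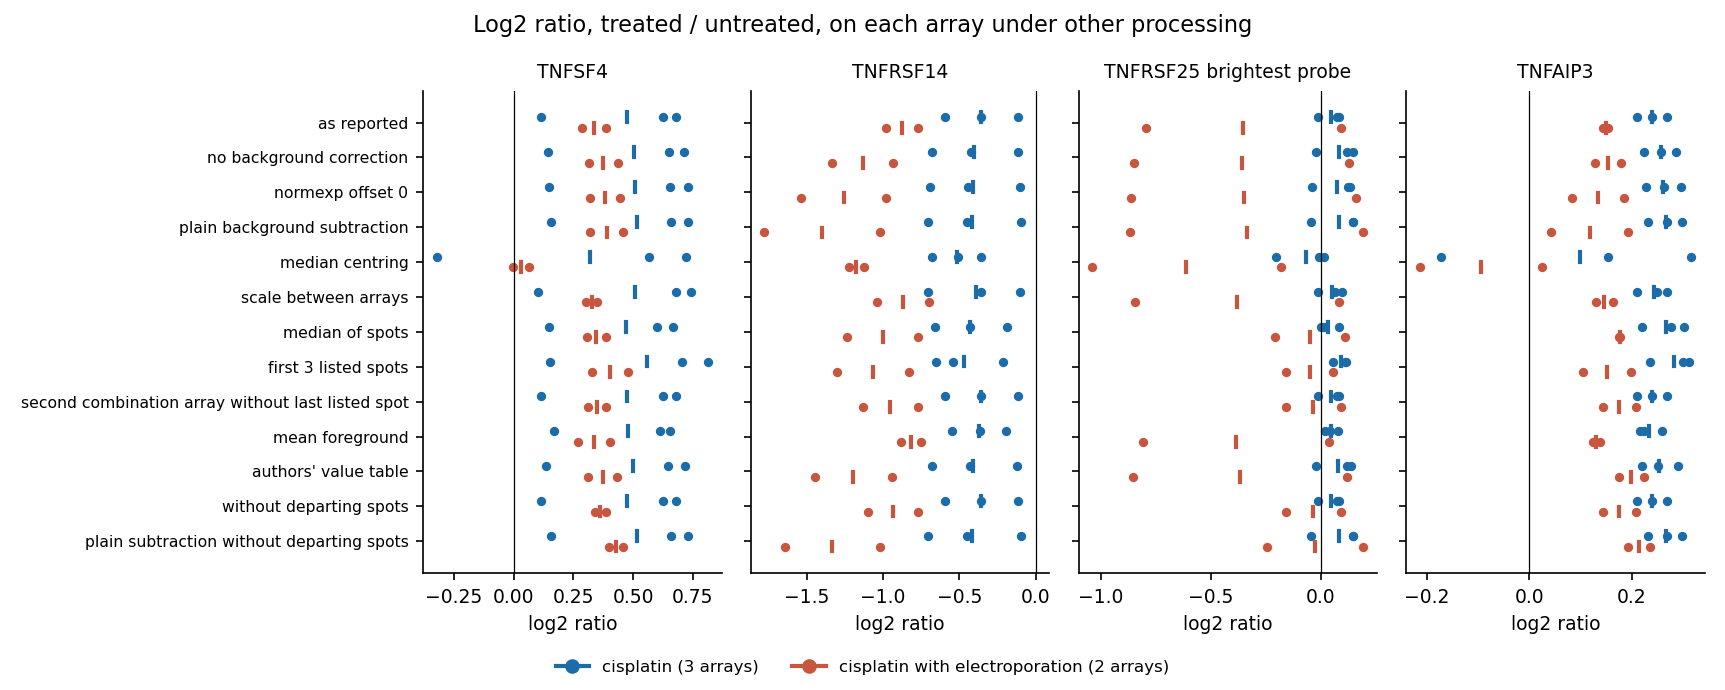
Log2 ratio on each array (points) and treatment means (bars) for TNFSF4, TNFRSF14, the brightest TNFRSF25 probe and TNFAIP3, as reported and under 12 other processing settings. The TNFRSF14 combination mean runs from -0.82 to -1.40, the TNFAIP3 combination mean is -0.094 with median centring, and the TNFRSF25 combination mean is near -0.033 without the last listed or the departing spots.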

How the data were processed

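The deposited scanner files give the raw foreground and local background intensity of every spot in 2 channels, not normalized, per the file headers. The first channel was read as Cy3 (untreated) and the second as Cy5 (treated), as the labels number them. The authors' value table holds a log2 ratio per probe, by a normalization the labels do not name; it correlated with the ratios used here at r = 0.812 to 0.889 across probes, with column medians of -0.0275 to 0.023, and served as an alternative. Its centring method stays unknown.

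From the median foreground, background was corrected by normexp (offset 50), a loess curve (span 0.3) was fitted and removed on each array, and the spots of a probe were averaged, with limma 3.58.1 in R 4.3.3. Spots more than 4-fold from their probe's median in the untreated channel were left out only in alternatives chosen after seeing the data. The treated channel and the ratio were not screened. One limma model over 5 arrays (3 residual degrees of freedom, prior 2.47) tested both treatments against 0 and against each other, two-sided, with Benjamini-Hochberg adjustment over 3048 probes and a threshold of 0.05; it was also tested on simulated data. Symbols came from the array's annotation, updated by gene identifier: 2192 probes had 1 gene and 856 had none. Pathway genes are given by their brightest probe.

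The genes and lists were chosen with earlier results of these data known. Named outside the 8 genes were up to 3 genes per list with the largest mean among those above background, the 3 nearest in ratio to TNFRSF14, TNFSF4 and TNFAIP3, and partners named after their values were seen. Precision is limited by the number of arrays. Protein and probe sequences were not used here.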

Additional observations from a re-analysis of the deposited data

How the results depend on the processing

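The count of probes called, 0 in each comparison, moved for cisplatin to 4 without background correction and to 1 in the authors' deposited table. For the combination it moved to 10 without background correction, 35 with median centring, 1 with scale normalization, 8 in the authors' table, 11 with dim probes left out and 9 with a trended, robust variance. With 1 array left out, the count ranged from 0 to 0 for cisplatin, from 0 to 93 for the combination and from 0 to 47 for the difference, both highest without the first combination array, when the second stands alone and is assumed to vary like the cisplatin arrays. That setting called 2 of the other pathway genes for the combination (range 0 to 2), TNFSF9 and RIPK3, and 1 for the difference (range 0 to 1), TNFSF9. Without the third cisplatin array the combination count was 1.

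Among means whose arrays all lay on 1 side of 0, median centring changed the sign of the combination mean for TNFRSF10C (0.092), TNFAIP3 (-0.094), TNFRSF13B (-0.081), TRAF1 (-0.16), NFKB1 (-0.21, and -0.065 for its difference between treatments) and RELB (-0.23), and that of the cisplatin mean of CCL2 (-0.041); the loess curve is the step left out there. Means whose arrays lay on both sides of 0 also changed sign with it: after the combination TNFRSF9 (-0.18), LTA (0.053), the second TNFRSF25 probe (-0.070) and LITAF (-0.23), and after cisplatin TNFRSF10C (0.000196), the brightest (-0.067) and dimmest (0.071) TNFRSF25 probes, CD27 (-0.061), NFKB1 (-0.14) and RELB (-0.078). Over all settings 88 sign changes of group means were counted, 78 of them with arrays on both sides of 0. A mean was counted once for each setting that changed its sign. TNFAIP2 after the combination read 0.056 with plain subtraction, with and without departing spots, and 0.0205 in the authors' table; the cause was not tested. Leaving aside sign changes of means with arrays on 1 side of 0 and of differences without overlap, 1224 values of named genes stayed within 1 SD of those reported and 166 did not.

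A fit with the replicate number as a block called 0 of 3048 probes in each comparison. Deviations of same-numbered arrays correlated at 0.269 and 0.0917 across probes. The log2 ratios of the first cisplatin and first combination arrays correlated at r = 0.552, and those of the second ones at 0.283. Across differently numbered arrays of the 2 treatments r was 0.171 to 0.34. Among cisplatin arrays it was 0.196 to 0.416, and between the combination arrays 0.22. Nothing in the labels ties the numbers to a shared culture or day, and whether same-numbered arrays share one was not tested. Low signal over background limits LTA, TNFRSF10C and TNFRSF10B and the dimmer TNFRSF25 probes, whose small ratios do not show a lack of response.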

Other observations

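The value for TNFRSF25 in the authors' deposited table, -0.853 on the second combination array, lay close to the -0.85 obtained here from all 4 spots without background correction and far from the -0.16 obtained without the departing spot. For TNFAIP3 the table gives 0.224 on that array, where all 8 spots gave 0.13 without background correction and the 7 spots without the departing one gave 0.21 with it. For the dimmest TNFRSF25 probe the table holds a value on 1 array only, 0.34 on the second combination array, where its last listed spot read 1875 and 1675 and the other 7 read 13 to 21. Which spots entered the table was not tested.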
